A study of Mus musculus with 4 samples.

Results

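The genes described here are the 7 sirtuins (Sirt1 to Sirt7) and 3 enzymes that set the supply of their cosubstrate: Nampt, Naprt and Nnmt. They were chosen by name, and their probes are the non-control array probes whose RefSeq transcript belongs to one of these genes. This gave 18 probes for 10 genes, out of 23462 genes named on the array. The study profiled whole liver of male mice on 4 Agilent arrays, 1 per group. The combination group was aged mice with type 2 diabetes given astragalus polysaccharide, a carbohydrate fraction of Astragalus root, together with metformin, a glucose-lowering biguanide. The metformin group was aged diabetic mice given metformin alone. The diabetic group was aged mice of the type 2 diabetes model without either drug. The control group was naturally aged mice without drug treatment. All groups share old age and male sex, and the labels carry a time of 60 d without its starting point. The sources used here do not state the strain, the way diabetes was induced, the age, the doses, or whether RNA of several mice was pooled. With 1 array per group, every difference below is one between single arrays, so none could be tested.

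Sirtuins are enzymes that remove acetyl and related acyl groups from lysines of other proteins, and they consume NAD in doing so. SIRT1, SIRT6 and SIRT7 act mainly in the nucleus, SIRT2 mainly in the cytosol, and SIRT3, SIRT4 and SIRT5 in mitochondria. Liver makes NAD from nicotinamide through NAMPT, the rate-limiting enzyme of that route, from nicotinic acid through NAPRT, and from tryptophan. NNMT methylates nicotinamide with the methyl group of S-adenosylmethionine and so removes it from the salvage route.

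Levels are log2 processed intensities minus the array's 75th percentile, so a level of 0 is a spot as bright as that percentile. Levels of different probes cannot be set against each other. Non-control probes of 56605 designs were measured, and 31980, 31867, 29828 and 29398 of them were above background on the combination, metformin, diabetic and control arrays. The 4 arrays came from a single slide, scanned at 1 time. They correlated at 0.950 to 0.965 with one another over 24363 probes above background on all of them. Hepatocyte markers were present, and all 6 had a value in the comparison of the diabetic and control arrays. The muscle gene Ckm and the B cell gene Cd79a were not well above background on any array. Other markers of their lists were: 5 of 7 lymphocyte and 3 of 4 fat and muscle markers on each array. Of 7 exocrine pancreas markers, 2 were above background on the combination array and all 7 on the other arrays. Repeated spots of a probe gave a technical SD of 0.11 in log2 for a difference between 2 arrays, and the scanner software's own error gave 0.16 for the spots used here. Neither holds any difference between mice, RNA preparations or hybridizations. A gene is called higher or lower below where it was at least 2-fold apart on a pair of arrays, that is 1 in log2.

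Of the 18 probes, 13 gave a usable value on all 4 arrays. A second probe each of Sirt1 and Sirt6 was not well above background on any array, and 1 probe of Nnmt was marked as an outlier spot on all of them. Nampt and another Nnmt probe lost their metformin value to the same mark, which the scanner software sets for uneven spots. Over the 4 arrays the 9 genes with a complete record ranged by 0.11 (Sirt6) to 0.66 (Sirt2), with a median range of 0.56, against a median range of 0.70 over 12702 genes. The sirtuins therefore did not vary more between these arrays than genes in general did. Sirt1, Sirt2, Sirt3, Sirt6 and Naprt were highest on the control array, which was the highest array for 36.4% of all genes. Sirt2, Sirt3, Nnmt and Naprt were lowest on the metformin array, which was the lowest array for 39.7% of all genes.

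**Figure D1:**
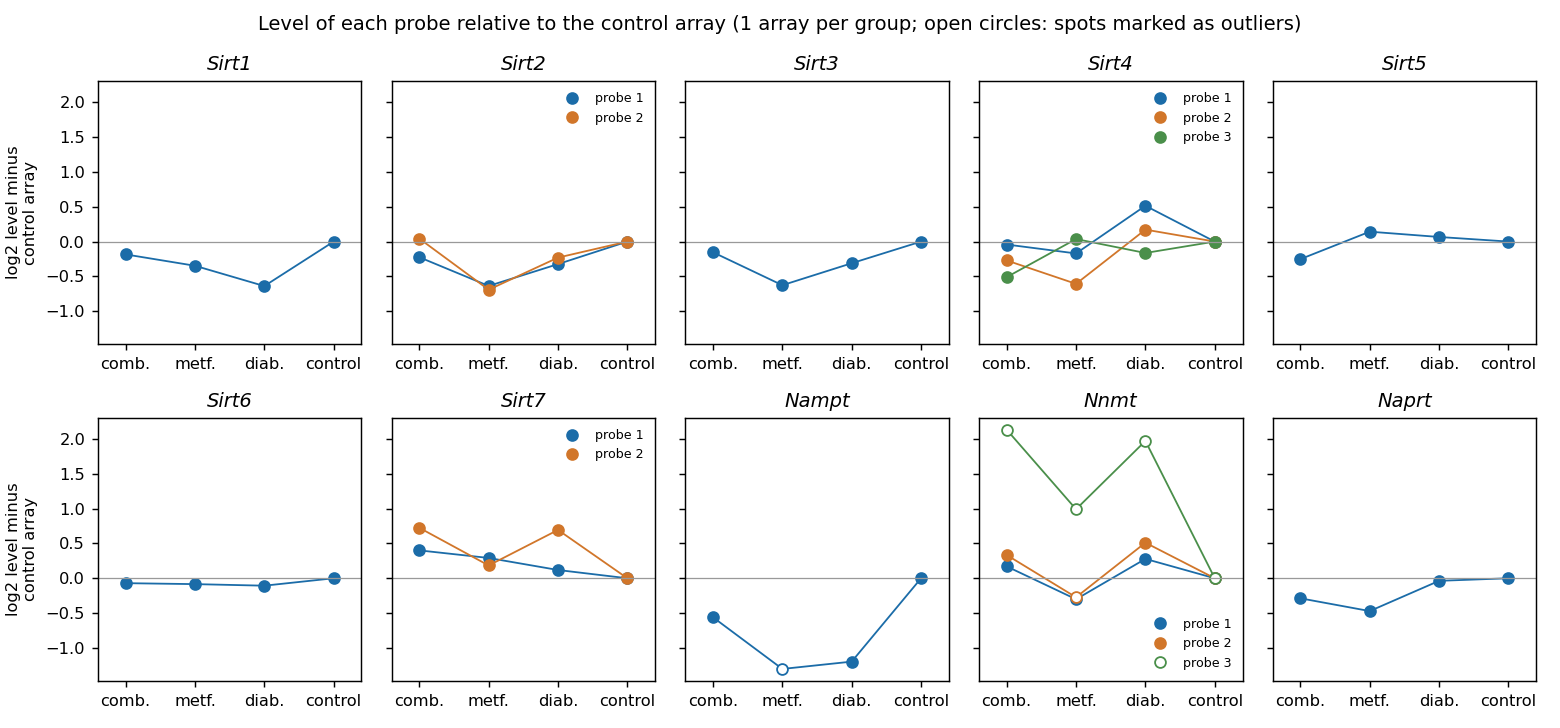
Log2 level of each probe minus its level on the control array (y axis) on the combination, metformin, diabetic and control arrays (x axis, 1 array each). Lines join values of 1 probe, probes are numbered from the brightest, open circles are spots marked as outliers and not used in the results, and the second probes of Sirt1 and Sirt6, not above background, are left out. Among the spots used, Nampt lies furthest below the control array, at -1.20 on the diabetic array (its marked metformin spot lies at -1.30), while Sirt6 stays within 0.11 of it.

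The clearest difference among these genes was that of Nampt between the diabetic and control arrays. Its single probe read 3.67 on the combination array, 3.03 on the diabetic array and 4.23 on the control array. Its spot on the metformin array was marked as uneven. Read in spite of that mark, it stood at 2.92. In processed intensity the 4 spots were 18895, 12523 (marked), 11099 and 21710 on the combination, metformin, diabetic and control arrays. The control array was thus highest, the combination array came next, and the diabetic array was low. Nampt was 2.29-fold lower on the diabetic array than on the control array, a log2 difference of -1.20 with a software error of 0.16. On the combination array it stood 0.64 above the diabetic array and 0.56 below the control array, a level between the 2.

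Nampt was the 1 member of 10 that was at least 2-fold apart on the diabetic and control arrays, and among all 13475 genes measured on both arrays 11.7% were, with 5.69% at least 2-fold lower. A difference as large as that of Nampt, in either direction, was found for 8.13% of all genes. The call depended on the scale: Nampt was lower under all 11 alternatives that gave a value, by -1.21 to -0.96, and at least 2-fold lower under 8 of them. In the authors' deposited table the same probe differed by -0.98, which is just under 2-fold. The Nampt value rests on 1 spot per array, and no other probe of the gene was on the array.

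Sirt1, the nuclear deacetylase that acts on PGC-1alpha, FOXO proteins and p53, had the next lowest difference between the diabetic and control arrays. Its usable probe read 1.79 on the combination array, 1.62 on the metformin array, 1.33 on the diabetic array and 1.97 on the control array. The diabetic array was the lowest of the 4 and the control array the highest. The difference between them, -0.64 (1.56-fold lower), kept its sign under all 12 alternatives, at -0.96 to -0.40, and 25.1% of all genes were at least as far apart. Sirt1 stood 0.29 above the diabetic array on the metformin array and 0.46 above it on the combination array, each under 2-fold. Both of these values use the same single diabetic array, so they are not independent of each other.

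Nampt is known to follow the circadian clock in mouse liver, through CLOCK and BMAL1 binding E-boxes (CACGTG, the same on both strands). The promoters of Nampt and Sirt1 are shown because these are the 2 members with the lowest differences between the diabetic and control arrays. Each is the 250 bases before the RefSeq start of the gene on GRCm38.p6, written 5′ to 3′ along the gene, and capitals mark each CACGTG.
Sirt1, chr10:63339036-63339285, minus strand: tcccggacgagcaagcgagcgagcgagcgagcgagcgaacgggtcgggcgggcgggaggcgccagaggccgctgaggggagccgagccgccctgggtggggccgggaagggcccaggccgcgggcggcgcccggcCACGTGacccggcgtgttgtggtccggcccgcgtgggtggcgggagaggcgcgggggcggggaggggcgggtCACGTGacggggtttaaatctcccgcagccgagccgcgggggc
Nampt, chr12:32820085-32820334, plus strand: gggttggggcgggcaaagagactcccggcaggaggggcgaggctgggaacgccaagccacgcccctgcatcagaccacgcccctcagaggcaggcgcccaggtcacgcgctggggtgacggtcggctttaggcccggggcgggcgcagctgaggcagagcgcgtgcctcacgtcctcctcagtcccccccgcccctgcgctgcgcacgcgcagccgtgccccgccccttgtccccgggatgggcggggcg
The Sirt1 stretch holds CACGTG at positions -115 to -110 and -43 to -38, counted from the start of the gene. The Nampt stretch holds none, which says only that these letters are not in this window. Of 32851 mouse promoter windows, from 250 bases before to 50 after the start, 7.15% hold CACGTG and 0.594% hold 2 or more. Windows were given for 8 of the 10 genes, all but Nnmt and Naprt, and Sirt1 was the 1 gene of these 8 with the motif. None of the 10 windows of these 8 genes held TGTTTAC, a FOXO motif searched on both strands and found in 3.65% of all windows. The windows of Sirt1 and Nampt were rich in G and C, at 79.0% and 76.3%, against a median of 52.7% over all windows, and the other member windows lay between 50% and 64.7%.

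Sirt6, a nuclear enzyme of DNA repair and of glucose and fat metabolism, was the steadiest member. Its usable probe read -0.14 on the combination array, -0.15 on the metformin array, -0.17 on the diabetic array and -0.07 on the control array. These values lie closer together than the software's error of a difference. Only 0.409% of the 12702 genes had a smaller range over the 4 arrays.

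Sirt7, a nucleolar enzyme linked to ribosomal RNA synthesis, was measured by 2 probes that did not run together. The brighter probe read 3.29, 3.18, 3.003 and 2.88 on the combination, metformin, diabetic and control arrays, and the dimmer probe read 0.68, 0.14, 0.65 and -0.05. Both put the control array lowest and the combination array highest, but they placed the metformin array differently. As a gene Sirt7 stood 0.41 above the control array on the diabetic array, with a probe SD of 0.41, and 0.56 above it on the combination array, with a probe SD of 0.23.

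Sirt2, the tubulin deacetylase that also acts on metabolic enzymes, was the member with the widest range among those read on all arrays. Its brighter probe read 3.39 on the combination array, 2.98 on the metformin array, 3.29 on the diabetic array and 3.62 on the control array. The dimmer probe read 1.61, 0.88, 1.34 and 1.57 in the same order, so both were lowest on the metformin array. Sirt2 differed by -0.28 between the diabetic and control arrays, by -0.39 between the metformin and diabetic arrays, and by 0.57 (1.49-fold) between the combination and metformin arrays. The second of these was 0.02 with a scale set by the spike-ins. The last value was above 0 under all 12 alternatives, at 0.16 to 0.67.

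Sirt3, the main deacetylase of mitochondria, followed the same order of arrays as the brighter Sirt2 probe. Its single probe read 4.24 on the combination array, 3.76 on the metformin array, 4.08 on the diabetic array and 4.39 on the control array. The metformin array was again lowest. The combination array stood 0.47 above the metformin array, at 0.06 to 0.57 under the alternatives. The metformin array stood 0.32 below the diabetic array, which became 0.10 above it with the spike-in scale.

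Sirt4, which acts on glutamate dehydrogenase and malonyl-CoA decarboxylase in mitochondria, had 3 probes for 1 transcript that differed in shape. From the brightest to the dimmest they differed by 0.51, 0.17 and -0.16 between the diabetic and control arrays, with a probe SD of 0.34. Between the metformin and diabetic arrays the same probes gave -0.69, -0.78 and 0.20. All 3 were lower on the combination array than on the diabetic array, by -0.56, -0.44 and -0.35, and their mean of -0.45 lay at -0.69 to -0.40 under the alternatives. That is the one Sirt4 difference of the 4 on which its probes shared a sign.

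Sirt5, the desuccinylase that acts on the urea cycle enzyme CPS1, was lowest on the combination array. Its probe read 1.35 there, 1.74 on the metformin array, 1.67 on the diabetic array and 1.60 on the control array. The other arrays lay within 0.14 of each other, less than the software's error of a difference. The combination array stood 0.39 below the metformin array (1.31-fold) and 0.32 below the diabetic array, and both kept their sign under all 12 alternatives.

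Naprt, which starts NAD synthesis from nicotinic acid, read 4.43 on the combination array, 4.25 on the metformin array, 4.68 on the diabetic array and 4.72 on the control array. The diabetic and control arrays were close to each other, at a difference of -0.04, whose sign changed in 7 of 12 alternatives. The metformin array stood 0.43 below the diabetic array (1.35-fold), at -0.57 to -0.02 under the alternatives.

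Nnmt, the nicotinamide methyltransferase, had 3 probes, and no spot was saturated. Its probe with 4 usable spots read 5.05 on the combination array, 4.57 on the metformin array, 5.15 on the diabetic array and 4.88 on the control array. A second probe read 4.97, 5.15 and 4.64 on the combination, diabetic and control arrays, so both put the diabetic array above the control array. As a gene Nnmt stood 0.39 above the control array on the diabetic array (1.31-fold, probe SD 0.16) and 0.58 below the diabetic array on the metformin array (1.49-fold). Both signs held under all 12 alternatives. The remaining Nnmt probe was marked as an outlier spot on all 4 arrays and is not used in these values. Read in spite of the mark, it was 1.92, 0.78, 1.76 and -0.22 on the combination, metformin, diabetic and control arrays, 3.93-fold higher on the diabetic than on the control array. It too was higher on the diabetic array than on the metformin and control arrays, by more than the probes used above.

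Across the family, the 7 sirtuins had a median difference of -0.11 between the diabetic and control arrays, the same as the median of all genes, -0.11. Of the 7, 3 were above 0 and 4 below, and none was at least 2-fold apart. Between the metformin and diabetic arrays the sirtuin median was -0.17, beside -0.11 for all genes, and none of the 9 members with a value was 2-fold apart, where 12.4% of 13900 genes were. Between the combination and diabetic arrays the sirtuin median was 0.16 beside 0.04, with none of 10 members 2-fold apart and 9.77% of 14108 genes. Between the combination and metformin arrays it was 0.16 beside 0.10, with none of 9 members 2-fold apart and 11.3% of 14363 genes. In all 4 comparisons the family lay within 0.12 of the median of all genes. No member other than Nampt reached 2-fold in any comparison under any of the 12 alternatives.

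**Figure D2:**
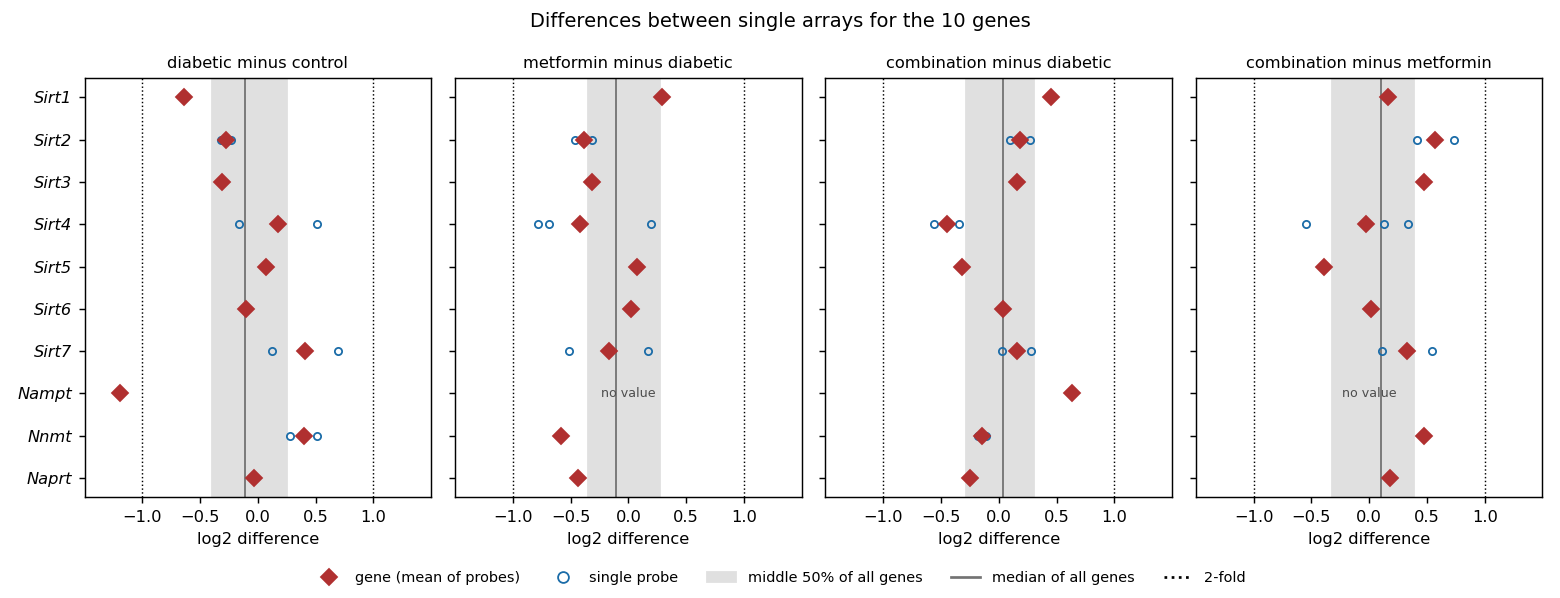
Log2 differences between pairs of single arrays (x axis) for the 10 genes (rows), with diamonds for the gene and small circles for its single probes. The grey band is the middle 50% of all genes, the line their median and the dotted lines 2-fold; Nampt at -1.20 in the first panel is the only diamond past a dotted line.

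**Figure D3:**
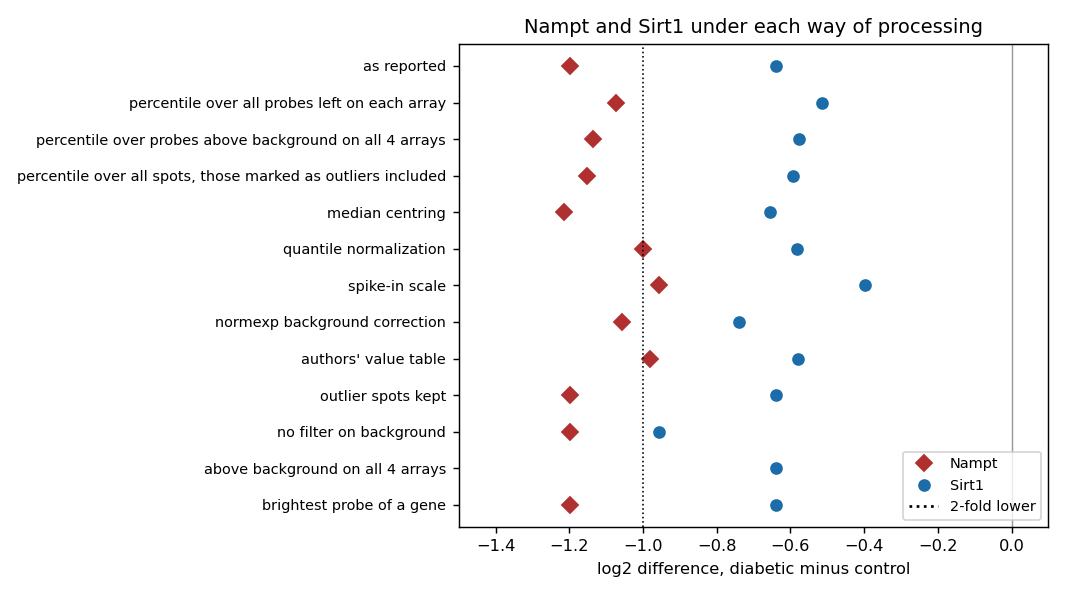
Log2 difference between the diabetic and control arrays (x axis) for Nampt (diamonds) and Sirt1 (circles) under the reported processing and each alternative (rows). Nampt crosses the 2-fold line between settings, from -1.21 to -0.96, and has no value where all 4 arrays must be usable; Sirt1 stays between -0.96 and -0.40.

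The wider NAD pathway was read through 38 genes that make, carry, phosphorylate, clear or consume NAD, the 3 enzymes above included. Between the diabetic and control arrays, 29 had a value. Of these, 2 were higher by 2-fold or more, as 5.97% of all genes were, and 2 were lower by as much, as 5.69% of all genes were. The median of the 29 was -0.09 beside -0.11 for all genes. The higher ones were Nmnat3, a late enzyme of NAD synthesis (1.25), and Sarm1, an NAD-cleaving enzyme known from axon degeneration (1.81). The lower ones were Nampt and Aox3, a liver aldehyde oxidase of the kind that oxidizes methylated nicotinamide. Aox3 read 2.81 on the diabetic array and 4.21 on the control array with its brighter probe, and the 2 probes gave -1.40 and -1.49, so the gene was 2.72-fold lower on the diabetic array. It was at least 2-fold lower under all 12 alternatives.

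In the treated livers Nmnat3 set the combination array apart. Its single probe read -0.94 on the combination array, 1.19 on the metformin array, 1.61 on the diabetic array and 0.35 on the control array. It was thus 5.84-fold lower on the combination than on the diabetic array and 4.37-fold lower than on the metformin array, and at least 2-fold lower in both under all 12 alternatives. Nmnat1, the nuclear member of the same family, differed by at most 0.33 in size in any of the 4 comparisons.

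Between the metformin and diabetic arrays 30 of the 38 genes had a value. Among them 2 were called higher, as 8.82% of all genes were, and 1 lower, as 3.54% were, with a median of -0.22. The higher ones were Bst1, an ecto-enzyme that cleaves NAD and is known from bone marrow stroma and myeloid cells (2.78), and the transporter gene Slc12a8 (1.89). Bst1 read -2.06 on the combination array, -0.45 on the metformin array and -3.23 on the diabetic array. The diabetic value, on which both of its differences from that array rest, lay near the dimmest level called above background there, -3.58. Its control spot was marked as uneven and would read -0.37, about as high as the metformin spot. Slc12a8 read -3.48, -1.35, -3.24 and -3.15 on the combination, metformin, diabetic and control arrays, and only its metformin value lay well above the dimmest levels called above background, which were -3.65, -3.83, -3.58 and -3.30 on the same arrays. The lower gene was Sarm1 (-1.06). Between the combination and diabetic arrays 32 had a value, with Bst1 (1.18) called higher, as 3.98% of all genes were. Called lower, as 5.79% of all genes were, were Nmnat3 (-2.55), Sarm1 (-1.17) and the PARP-family gene Parp3 (-1.16). Between the combination and metformin arrays 32 had a value, with Afmid, the kynurenine formamidase of the tryptophan route, called higher (1.21), as 2.62% of all genes were. Nmnat3 (-2.13), Slc12a8 (-2.13) and Bst1 (-1.60) were called lower, as 8.72% of all genes were. The calls of Sarm1 between metformin and diabetic, of Bst1 between combination and diabetic, and of Afmid each ended under some alternatives, with 9 of 12, 9 of 11 and 9 of 12 keeping them. Those of Sarm1 and Parp3 between combination and diabetic were kept under 11 of 12 each.

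Genes that carry tryptophan to NAD stayed under 2-fold in the first 3 comparisons. Between the diabetic and control arrays 5 of 6 measured members were below 0, as 59.7% of all genes were. Their median was -0.45, beside -0.11 for all genes and -0.42 for the hepatocyte markers. Kmo, the kynurenine hydroxylase, was furthest at -0.71 by 1 of its 2 probes, and lay at -0.72 to -0.39 under the alternatives. That probe read 4.53 on the combination array, 4.39 on the metformin array, 4.22 on the diabetic array and 4.93 on the control array. The other Kmo probe lost its metformin and diabetic spots to outlier marks. Read in spite of the mark, its diabetic spot stood at 3.64, beside 3.90 on the control array. Between the metformin and diabetic arrays 6 of 7 were below 0, as 59.1% of all genes were, with Afmid furthest at -0.73. Between the combination and diabetic arrays Ido2, a tryptophan dioxygenase, was furthest at -0.76, but its 2 probes gave -1.57 and 0.05. Both Afmid probes put the combination array above the metformin array, by 0.87 and 1.55.

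**Figure D4:**
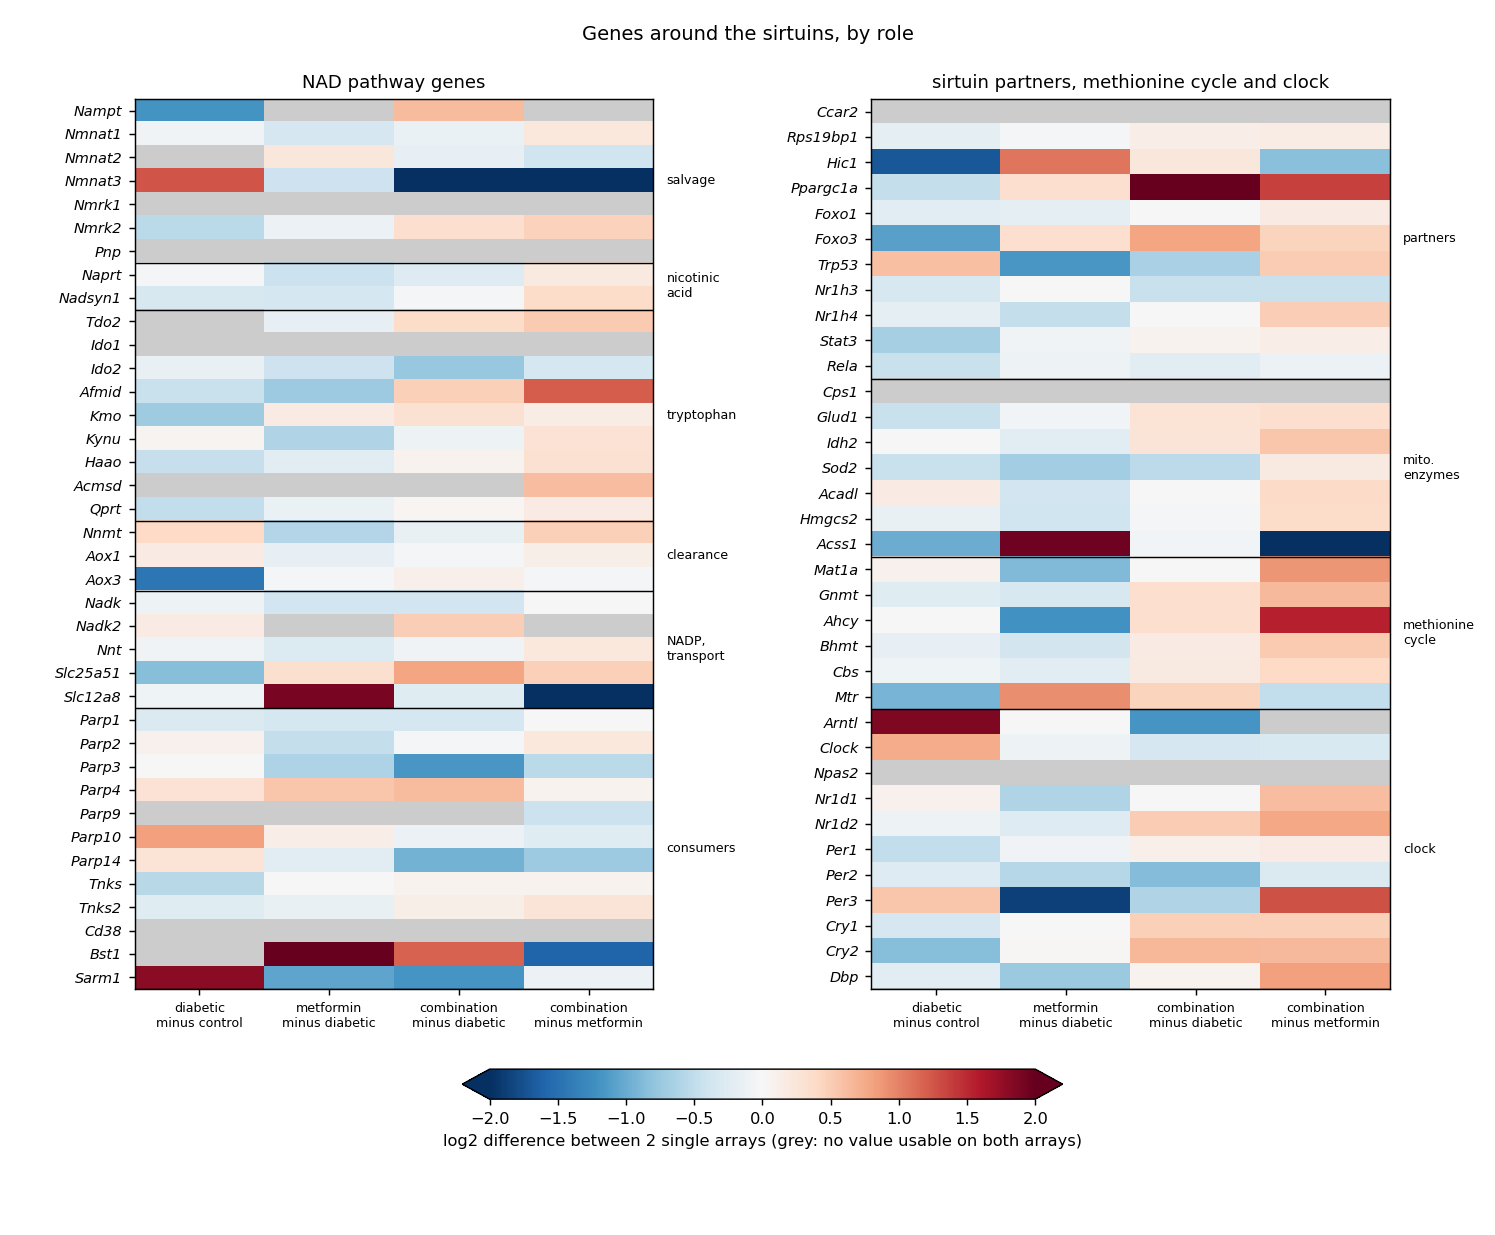
Log2 differences (colour, limited to 2 in either direction; red higher in the first-named array) for genes around the sirtuins, in rows grouped by role, over the 4 comparisons in columns. Grey marks genes without a usable value on both arrays; the darkest cells include Nmnat3 on the combination array (-2.55 against diabetic) and Ppargc1a (2.22 against diabetic).

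Among genes that work with sirtuins, Ppargc1a stood out on the combination array. It encodes PGC-1alpha, a coactivator of mitochondrial and gluconeogenic genes that SIRT1 deacetylates. Its brighter probe read 3.86 on the combination array, 2.49 on the metformin array, 2.15 on the diabetic array and 2.34 on the control array. The second probe read 3.19, 0.45 and 1.20 on the combination, diabetic and control arrays, with the metformin spot left out. The gene was 4.67-fold higher on the combination than on the diabetic array, with probe differences of 1.71 and 2.74, and 2.58-fold higher than on the metformin array by 1 probe, a call against metformin kept under 11 of 12 alternatives. It was at least 2-fold higher than on the diabetic array under all 12 alternatives. Sirt1 differed by 0.46 on the same pair of arrays.

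The list of 11 partners and regulators held 2 calls between the diabetic and control arrays, both lower, among 10 with a value, where 5.69% of all genes were called lower. Hic1, a repressor of Sirt1 transcription, differed by -1.69 and read -0.47, 0.37, -0.70 and 0.99 on the combination, metformin, diabetic and control arrays. Foxo3, a stress-response factor that sirtuins deacetylate, differed by -1.08, with probe values of -0.62 and -1.54, and stayed at 2-fold under 8 of 12 alternatives. On the metformin array Hic1 was higher than on the diabetic array (1.07) and Trp53, which encodes p53, lower (-1.16), calls that held under 10 and 11 of 12 alternatives, where 8.82% of all genes were called higher and 3.54% lower. The other members measured in these comparisons were under 2-fold.

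Of 7 mitochondrial enzymes that SIRT3, SIRT4 or SIRT5 act on, 6 had a value in each comparison and only Acss1, an acetyl-CoA synthetase, was called. It was 1 of 6 between the metformin and diabetic arrays, beside 12.4% of all genes, and 1 of 6 between the combination and metformin arrays, beside 11.3%. Acss1 read -2.64 on the combination array, -0.65 on the metformin array, -2.59 on the diabetic array and -1.60 on the control array. It was highest on the metformin array, by 1.94 over the diabetic array. In the first comparison Acss1 was also furthest, at -0.99, and between the combination and diabetic arrays Sod2, mitochondrial superoxide dismutase, was furthest at -0.53.

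The methionine cycle, which supplies the methyl group that NNMT uses, had 5 of 6 genes below 0 between the metformin and diabetic arrays, as 59.1% of all genes were, with a median of -0.34 beside -0.11 for all genes. Of these 5, Bhmt, Cbs and Gnmt were above 0 with the spike-in scale. Ahcy, which splits S-adenosylhomocysteine, read 4.02 on the combination array, 2.47 on the metformin array, 3.69 on the diabetic array and 3.69 on the control array. It was the 1 member past 2-fold, at -1.22 against the diabetic array (under 11 of 12 alternatives), beside 12.4% of all genes, and on the combination array it stood 1.55 above the metformin array. Mat1a, which makes S-adenosylmethionine in liver, differed by -0.89 and 0.89 in the same 2 comparisons. Mtr went the other way, at 0.94 between the metformin and diabetic arrays, and was furthest between the diabetic and control arrays, at -0.93, and between the combination and diabetic arrays, at 0.45. Hepatocyte markers were also below 0 between the metformin and diabetic arrays in 6 of 6 cases, with a median of -0.38, and their part in the result was not tested.

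Among the clock genes, 1 of the 9 or 10 with a value was at least 2-fold apart in each of the 4 comparisons, beside 11.7%, 12.4%, 9.77% and 11.3% of all genes. Arntl, which encodes BMAL1, read -1.64 on the combination array, -0.46 on the diabetic array and -2.33 on the control array, with its metformin spot left out. It was 3.66-fold higher on the diabetic than on the control array and differed by -1.18 between the combination and diabetic arrays, a call kept under 10 of 11 alternatives. Clock, its partner, stood 0.74 above the control array on the diabetic array. Per3, a period gene, read 0.27, -1.01, 0.86 and 0.31 on the combination, metformin, diabetic and control arrays, at -1.87 between the metformin and diabetic arrays and 1.27 between the combination and metformin arrays, the last past 2-fold under 10 of 12 alternatives. Of 10 clock genes measured on the diabetic and control arrays, 4 were above 0 (Arntl, Clock, Per3 and Nr1d1). The other 6 were below 0, as Nampt and 59.7% of all genes were. Nr1d1 (0.09) and Nr1d2 (-0.10) lay close to 0, and the probes of Per2, counted as below 0, gave -0.70 and 0.17. The hour of tissue collection was not stated, and the part of the clock in the Nampt and Sirt1 values was not tested.

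Liver RNA comes from several cell types, and fewer cells of a type and less RNA per cell cannot be told apart here. Neutrophils and other immune cells express Nampt and the NAD-cleaving enzymes. Of 4 neutrophil markers with a value, 3 were at least 2-fold lower on the diabetic array than on the control array. Among all genes 5.69% were. The neutrophil median was -1.35, beside -0.11 for all genes. Other marker lists were lower there too, at -1.60 for lymphocyte markers (4 of 5 at least 2-fold lower) and -1.34 for erythroid markers. Medians were -0.98 for stellate and fibroblast, -0.82 for endothelial, -0.72 for macrophage and -0.20 for fat and muscle markers. Lower marker levels were thus not confined to the neutrophil list, and the part of neutrophils in the Nampt value was not tested. The summed linear level of 4 neutrophil markers was 3.53, 7.44, 5.05 and 15.8 on the combination, metformin, diabetic and control arrays. Hepatocyte markers were below 0 between the diabetic and control arrays in 6 of 6 cases, with a median of -0.42.

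For Bst1 the macrophage, neutrophil, lymphocyte, stromal and endothelial markers are set beside it. The summed linear level of 5 macrophage and Kupffer cell markers was 33.4, 48.0, 43.2 and 66.4 on the combination, metformin, diabetic and control arrays. Between the combination and diabetic arrays Bst1 differed by 1.18. All 5 lymphocyte markers with a value were at least 2-fold higher on the metformin than on the diabetic array, as 8.82% of all genes were. Their median was 3.08. All 5 were below 0 between the combination and metformin arrays, as 42.4% of all genes were, with a median of -2.22. Between the combination and diabetic arrays 3 of 5 were at least 2-fold higher, as 3.98% of all genes were, with a median of 1.04. The summed linear level of 5 stellate and fibroblast markers was 36.0, 48.4, 24.9 and 47.9 on the combination, metformin, diabetic and control arrays. The sum of 7 lymphocyte markers was 1.71, 8.17, 0.92 and 3.17 on the same arrays. Among the 3 arrays that gave Bst1 a usable value, Bst1 and both of these sums were highest on the metformin array and lowest on the diabetic array. The sum of 5 endothelial markers had that order too, at 27.0, 27.3 and 19.7 on the combination, metformin and diabetic arrays. The stellate and fibroblast list was mixed, with 1 of 5 markers below 0 between the combination and diabetic arrays. Among the same 3 arrays the macrophage and neutrophil sums were highest on the metformin array and lowest on the combination array. Exocrine pancreas markers differed most of all, with 7 of 7 at least 2-fold lower on the diabetic than on the control array, as 5.69% of all genes were. Their summed level was 10.8, 28.8, 17.7 and 123 on the combination, metformin, diabetic and control arrays. The part of these cell types in the results was not tested.

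The genes whose levels followed a member most closely were sought for the 2 members with the widest complete range. Likeness was the distance between gene-centred log2 levels over the 4 arrays, among 12701 other genes. For Sirt2 they were Grwd1 (0.02), Cyp4f17 (0.02), Dpyd (0.02), 2310005E17Rik (0.03) and Nudt4 (0.04), and 943 genes lay within 0.2. For Sirt1 they were Birc6 (0.04), Sf1 (0.05), Cd82 (0.06), Sertad1 (0.06) and Slc26a11 (0.06), with 174 genes within 0.2. With 4 arrays such closeness is common, as these counts show.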

How the data were processed

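Cy5-labelled liver RNA of 4 groups was hybridized to Agilent 1-colour arrays, 1 per group. Per the file headers, Feature Extraction 11.5.1.1 made the deposited spot intensities, with mm9 as the grid's genome. Version 10.7 of Agilent's program stands in the submitters' processing notes instead. The processed intensity was used, already corrected for background per the file headers. The authors' deposited table holds log2 values, normalized after import into GeneSpring per the labels' protocols, by a method not given in the sources used here. Its columns correlated at 0.999 to 1.00 with the log2 intensities and share a median of 7.85.

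Spots marked non-uniform or population outlier were left out (2.18%, 5.35%, 4.66% and 3.31% of 59305 on the combination, metformin, diabetic and control arrays). They were mostly bright and unequal in number, so the 75th percentile was taken on each array over the same 51780 probes with a value on all 4. A probe was above background where at least 50% of its spots were marked so. Of 56605 probes, 33767 (59.7%) were named through the RefSeq table of GRCm38.p6. Probes above background on both arrays were averaged to a difference per gene. The steps were tested on simulated data. The files hold no mean spot signal, so the normexp alternative (limma 3.58.1, offset 50) used median signals. Protein sequences were not used here.

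Genes other than the members are named where at least 2-fold apart, up to 4 per list and comparison, or the furthest where none was. Members and lists were chosen with earlier results of these data known. The number of arrays limits the precision.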

Additional observations from a re-analysis of the deposited data

How the results depend on the processing

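The median difference of all genes was -0.11, -0.11, 0.04 and 0.10 in the 4 comparisons in the order of the report, and the 3 other percentile sets, median centring and the spike-in scale shift every gene of a pair by 1 constant. Among 454 values of single members under 12 alternatives, 371 moved by less than the software's error of a difference and 83 by more. Nampt between the diabetic and control arrays, the only difference past 2-fold, kept its sign. Of the smaller differences, some kept their sign throughout and others did not. Naprt between diabetic and control and Sirt6 between combination and metformin each kept it under 5 of 12. The number of members 2-fold apart on the diabetic and control arrays was 1 as reported and 0 with quantile normalization, the spike-in scale, the authors' table, and a filter for all 4 arrays, where Nampt has no value. With the percentile over all probes left on each array, the sirtuin median was -0.082 between the combination and diabetic arrays and -0.13 between the combination and metformin arrays, and that of the NAD list -0.27 and -0.16. With the spike-in scale the sirtuin median was 0.13 between diabetic and control, 0.24 between metformin and diabetic, and -0.25 between combination and metformin, and that of the NAD list 0.15, 0.19 and -0.28. The NAD list median between combination and metformin was -0.056 with quantile normalization and -0.066 with the authors' table. The sirtuin median was -0.28 between diabetic and control without the filter on background, and 0.022 between metformin and diabetic with the brightest probe of each gene. Of all genes 2-fold apart, 23.1% were higher on the combination than on the metformin array as reported, 7.42% with the percentile over all probes left, and 4.67% with the spike-in scale. For the metformin and diabetic arrays the share was 71.4%, 57.8% with median centring and 92.3% with the spike-in scale. For the diabetic and control arrays it was 51.2%, 63.3% with the percentile over all probes left, and 72.6% with the spike-in scale. For the combination and diabetic arrays it was 40.8%, and 19.3% with the percentile over all probes left. Without the filter on background, 1792 genes were higher and 1437 lower on the diabetic than on the control array (805 and 767 as reported), 2644 and 867 on the metformin than on the diabetic array (1226 and 492), 1084 and 1429 on the combination than on the diabetic array (562 and 817), and 718 and 2632 on the combination than on the metformin array (376 and 1253). With the spike-in scale the last pair was 117 and 2390. The cause was not tested. No paired analysis was possible because each group holds 1 array, and no array could be left out of a group.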

Other observations

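The fat-tissue gene Adipoq, which was listed as a marker of another tissue, read 2.21, 1.83, 1.70 and 2.13 on the combination, metformin, diabetic and control arrays, and the muscle gene Acta1 -1.75, -1.61, -1.86 and -1.86. Neither was 2-fold apart in any of the 4 comparisons. Slc25a51, which encodes the mitochondrial NAD carrier, read 3.58 on the combination array, 3.10 on the metformin array, 2.79 on the diabetic array and 3.64 on the control array. Slc25a51 stayed under 2-fold in the 4 comparisons. Cps1, Cd38, Nmrk1 and Ccar2 lost their spots to outlier marks on all arrays but the combination array, and Pnp on all but the control array, so no difference is given for them.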
